A study of Mus musculus with 12 samples.

Results

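The 8 growth factor receptors Pdgfra, Pdgfrb, Csf1r, Insr, Fgfr1, Met, Egfr and Kdr were followed across normal thymocytes, TCF-1-deficient thymocytes and TCF-1-deficient T cell lymphomas of the mouse. They were selected on the lymphoma arrays, where Pdgfrb stood high, to set its level beside its paralog and other receptor tyrosine kinases. All 8 were measured, among 19938 genes in all, each read from the deposited row with the highest mean. In the tests across genes 6 of the 8 were kept, while Met and Kdr had a mean below the filter at log2 4.78 and were left out.

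The groups were hybridised to Affymetrix Mouse Gene ST arrays: wild-type (WT) DN3 thymocytes on 3 arrays, DN3 thymocytes of TCF-1 knockout (KO) mice on 3 arrays, and lymphomas of TCF-1 KO mice on 6 arrays. All mice carried the C57/BL6 strain label; the DN3 donors were 8 to 12 weeks old, and the tumour-bearing mice 12 to 40 weeks. DN3 cells are CD4- CD8- thymocytes at the stage at which the pre-T-cell receptor is tested, and TCF-1 is a DNA-binding factor of the T lineage. DN3 cells were sorted out of the thymus, and lymphoma cells were sorted from the thymus of diseased mice, so there was no lymphoma with intact TCF-1 and no WT group of the tumours' upper age. The sources used here do not say how the TCF-1 allele was made or whether any mouse gave cells to more than 1 array. The TCF-1 gene itself was not analysed here.

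Receptor tyrosine kinases are single-pass membrane proteins that pair when a ligand binds and phosphorylate each other's cytoplasmic tails, which then recruit adaptors, phosphatidylinositol 3-kinase, phospholipase C gamma and the Ras pathway. Pdgfra and Pdgfrb bind the platelet-derived growth factors and are best known from fibroblasts, pericytes and smooth muscle. Csf1r serves macrophages, Kdr is the vascular endothelial growth factor receptor of endothelium, Egfr and Met act mainly in epithelia, Fgfr1 in mesenchyme, and Insr is the insulin receptor that most cells carry.

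The arrays had similar medians, between log2 5.30 and 5.39. On 35 rows without a gene name, 4 arrays (WT replicate 1, KO replicate 1, lymphoma replicates 1 and 2) stood apart from the other 8 arrays, and since every group has arrays on both sides, differences within each of these sets are given where they matter. The labels do not state the sex of the mice. Xist was low on KO replicate 3 and on lymphoma replicates 1, 2 and 6. Of 14 listed T lineage markers 13 were measured, and their mean level lay between 8.52 and 8.62 in WT DN3, 8.53 and 8.62 in KO DN3 and 8.28 and 8.52 in lymphomas, so every array had a strong T lineage signal. Within that list Cd8a rose in KO DN3 by 1.21 (adjusted p = 0.00111), and Rag1 fell by 1.92 in lymphomas against WT DN3 (adjusted p = 0.00824). The replicates are labelled as biological, but p-values measure only the spread between these samples.

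Pdgfrb was lowest in WT DN3, higher in KO DN3 and highest in every lymphoma. Its log2 signal was 5.81, 5.73 and 6.00 on the WT DN3 arrays and 6.55, 6.43 and 6.35 on the KO DN3 arrays. On the 6 lymphoma arrays the lowest value was 8.56, the median 8.76 and the highest 9.02. No array of one group overlapped with another group, and the group means in the order WT DN3, KO DN3, lymphoma were each further apart than the range within any group. The lowest KO DN3 array was 0.35 above the highest WT DN3 array. In lymphomas the mean of 8.77 ± 0.21 (SD, n = 6) was 2.92 above WT DN3, a 7.57-fold difference, and 2.32 above KO DN3, a 4.99-fold difference. These lymphoma values chose the receptors and are given as a description. The difference from WT DN3 was 2.94 within the set of 4 arrays and 2.91 within the other 8.

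**Figure D1:**
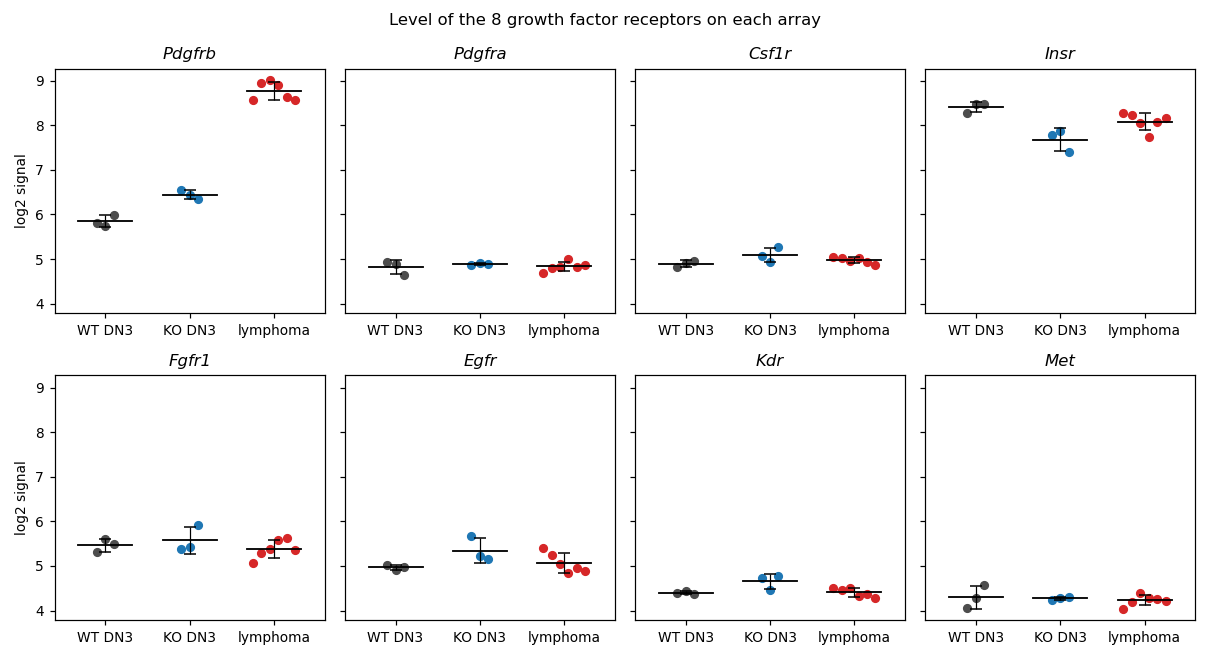
Each panel plots 1 receptor, with the log2 signal on the vertical axis and the 3 groups on the horizontal axis; points are arrays in replicate order, long bars are means and whiskers are 1 SD. Pdgfrb runs from means of 5.85 in WT DN3 and 6.45 in KO DN3 to 8.77 in lymphomas, while Pdgfra, Csf1r, Fgfr1, Egfr, Kdr and Met stay in a narrow low band and Insr dips in KO DN3.

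The comparison of KO with WT DN3 was tested, and the lymphoma arrays, on which Pdgfrb stood high, are not part of it. The WT DN3 arrays are, and the rise of Pdgfrb in lymphomas is read against the same arrays. Earlier results of this comparison were known when the receptors were chosen, so the test is not fully independent of that choice. Pdgfrb rose in KO DN3 by 0.60 (SE 0.12, 95% interval 0.33 to 0.87), which is 1.52-fold, with an adjusted p of 0.0324 in limma across 14953 genes. The rise was 0.75 within the set of 4 arrays and 0.53 within the other 8. Same-numbered KO and WT arrays deviated together, and with the replicate number as a paired block the adjusted p of Pdgfrb was 0.00693. The call was close to its threshold. The adjusted p was 0.123, 0.185 and 0.0546 without WT replicate 1, 2 or 3, and 0.0671 and 0.0827 without KO replicate 1 or 3, with differences between 0.54 and 0.68 throughout. It was also lost in the larger array set alone, at an adjusted p of 0.145.

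Insr, the insulin receptor, moved the other way in KO DN3. Its log2 signal was 8.27, 8.47 and 8.47 in WT DN3 and 7.78, 7.87 and 7.39 in KO DN3. The groups did not overlap, and KO replicate 3 was the lowest array. Insr fell by 0.72 on the log2 scale (SE 0.14, 95% interval -1.04 to -0.41; adjusted p = 0.0300, limma; with the replicate block 0.00418). A further deposited row of Insr gave 6.64, 6.90 and 6.73 in WT DN3 and 5.77, 6.33 and 6.02 in KO DN3, also without overlap. The call on the brighter row was lost without WT replicate 1, 2 or 3 (adjusted p = 0.0598, 0.162 and 0.104) and without KO replicate 3 (-0.58, adjusted p = 0.102). It was lost too when quantile normalisation was repeated over the genes (adjusted p = 0.0619).

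In lymphomas Insr lay between the DN3 groups, with a lowest value of 7.73, a median of 8.12 and a highest of 8.27. The highest tumour and the lowest WT array were both at 8.27, and the lowest tumour, replicate 4, lay inside the KO DN3 range. The mean was 0.32 below WT DN3 (a difference of -0.32) and 0.40 above KO DN3. Within the set of 4 arrays the difference from WT DN3 was only -0.02, and within the other 8 arrays it was -0.47.

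Among the members, then, 1 of the 6 tested was called higher and 1 lower in KO DN3. Over all tested genes 0.568% were called higher and 1.42% lower in that comparison. With the replicate block the same 2 members were called, beside 2.88% of all tested genes higher and 6.35% lower.

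Pdgfra, the other PDGF receptor, did not follow Pdgfrb in its measured signal. Its log2 signal was 4.94, 4.89 and 4.64 in WT DN3, 4.88, 4.92 and 4.89 in KO DN3, and from 4.69 over a median of 4.82 to 5.01 in lymphomas. All 3 groups overlapped. The KO DN3 difference was 0.07 (95% interval -0.19 to 0.34, adjusted p = 0.787, limma), and the 0.60 measured for Pdgfrb lies outside this interval. The group means of Pdgfra, 4.82 to 4.90, were only just above the filter at 4.78, where differences are understated. A larger change in Pdgfra than the one measured is therefore not excluded. In lymphomas the mean of Pdgfra was 0.01 above WT DN3 and 0.06 below KO DN3 (-0.06).

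Csf1r, the receptor for colony stimulating factor 1, is the gene next to Pdgfrb on chromosome 18 by the gene order RefSeq gives for GRCm38.p6. It measured 4.82, 4.91 and 4.96 in WT DN3, 5.07, 4.94 and 5.27 in KO DN3, and from 4.87 over a median of 4.98 to 5.05 in lymphomas. The groups overlapped. The KO DN3 difference was 0.19 (95% interval -0.08 to 0.46; adjusted p = 0.455, limma), and the lymphoma means lay 0.08 above WT DN3 and -0.11 from KO DN3.

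Fgfr1, a receptor for fibroblast growth factors, measured 5.30, 5.59 and 5.50 in WT DN3, 5.38, 5.43 and 5.91 in KO DN3, and from 5.07 over a median of 5.36 to 5.62 in lymphomas. The high KO DN3 value was on replicate 3, and all groups overlapped. The KO DN3 difference was 0.11 (95% interval -0.24 to 0.45; adjusted p = 0.766, limma), an interval that leaves room for a modest change either way. The lymphoma means were -0.09 from WT DN3 and -0.19 from KO DN3.

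Egfr, the epidermal growth factor receptor, measured 5.02, 4.91 and 4.98 in WT DN3 and 5.66, 5.23 and 5.15 in KO DN3. KO replicate 1 was well above the others, and the KO and WT DN3 arrays did not overlap. The share of all tested genes without such overlap is not given here, so non-overlap of any member is a description only. The difference was 0.38 (95% interval 0.06 to 0.70), with an adjusted p of 0.229 in limma and 0.0598 with the replicate block, so it did not pass the threshold. It was 0.64 within the set of 4 arrays and 0.25 within the other 8. In lymphomas Egfr ran from 4.84 over a median of 5.00 to 5.40, with a mean 0.10 above WT DN3 and -0.28 from KO DN3. The difference from WT DN3 was 0.30 within the set of 4 arrays and -0.0055 within the other 8.

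Kdr and Met were below the filter and have values but no test. Kdr, the receptor of vascular endothelial growth factor, measured 4.38, 4.44 and 4.37 in WT DN3, 4.74, 4.46 and 4.78 in KO DN3, and from 4.29 over a median of 4.42 to 4.50 in lymphomas. Its KO and WT DN3 arrays did not overlap, at a mean difference of 0.26. Met, the receptor of hepatocyte growth factor, measured 4.05, 4.27 and 4.57 in WT DN3, 4.24, 4.29 and 4.30 in KO DN3, and from 4.04 over a median of 4.24 to 4.38 in lymphomas. Its KO DN3 difference was -0.02 and its groups overlapped throughout. Signals this low are near the floor of the array, where fold changes are understated.

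The KO DN3 difference of Pdgfrb was set against those of the other members through the log2 ratio of Pdgfrb to each gene, a comparison chosen after the data were seen. In limma over the ratios to all 14952 other tested genes, the ratio to Insr was 1.33 higher in KO than in WT DN3 (95% interval 0.98 to 1.67; adjusted p = 1.66e-06). The ratio to Pdgfra was 0.53 higher (0.17 to 0.88; adjusted p = 0.00816), that to Fgfr1 0.49 (0.12 to 0.87; adjusted p = 0.0165) and that to Csf1r 0.41 (0.06 to 0.75; adjusted p = 0.0287). The ratio to Egfr was 0.22 higher (-0.12 to 0.57; adjusted p = 0.202), so a difference between Pdgfrb and Egfr in KO DN3 was not shown. The replicate block changed none of these 5 calls. The ratio was called higher for 87.7% of all other tested genes, and 4 of the 5 tested members are read against that share. All these ratios contain the same Pdgfrb values and so are not independent, which can make the intervals too narrow. For Met and Kdr, below the filter, the ratio was 0.62 and 0.34 higher (p = 0.1 and 0.2, exact permutation test of KO and WT labels). With 20 labellings the smallest p of that test is 0.1, so it cannot show any of these differences at 0.05. Its p was 0.1 for Insr, Pdgfra and Csf1r, 0.2 for Egfr and 0.3 for Fgfr1.

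A wider list of receptor tyrosine kinases outside the 8 held 50 genes, of which 48 were measured and 33 tested. Together with the members this gave 39 tested receptors. Pdgfrb had the largest rise of the 39 in KO against WT DN3, although Igf1r, Insr and Kit differed by more in the other direction. In both lymphoma comparisons it also stood first, which restates how it was chosen. Among all 14953 tested genes it stood at place 115 from the top in KO against WT DN3. In lymphomas, again as a description, it stood at 9 against WT DN3 and at 6 against KO DN3. The comparisons share arrays with each other. The next receptor was Egfr in KO DN3, at 0.38, and Ryk in lymphomas, at 1.01 against WT DN3 and 0.87 against KO DN3. At the other end in KO DN3 stood Kit at -0.69, Insr at -0.72 and Igf1r at -0.92.

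**Figure D2:**
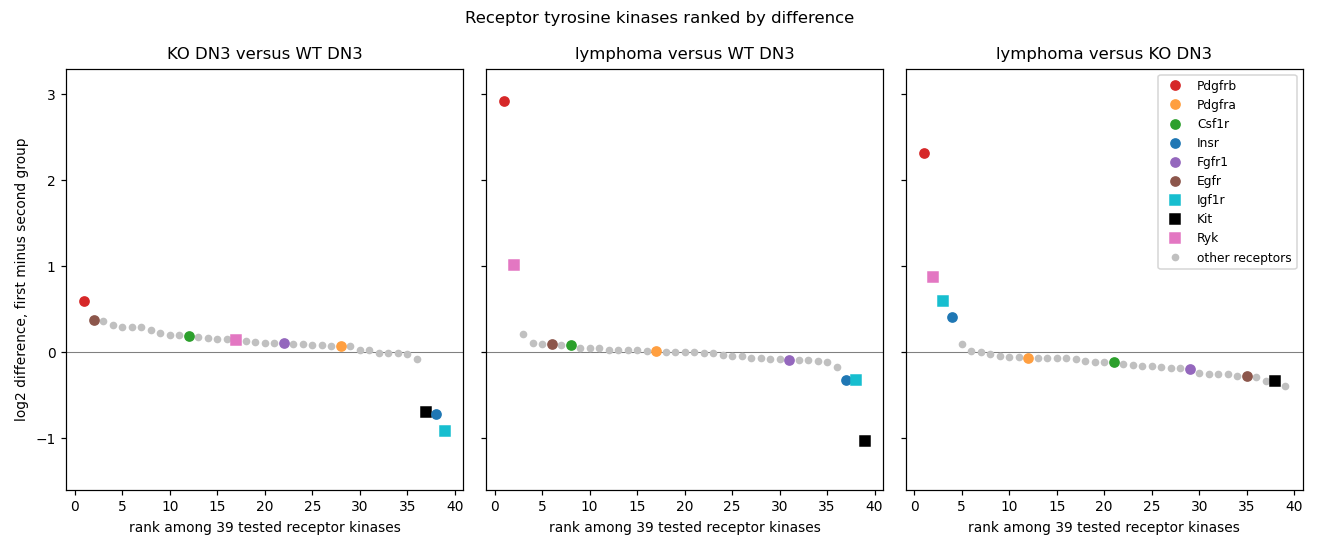
Each panel ranks the 39 tested receptor tyrosine kinases by their log2 difference in 1 comparison; round coloured points are members, squares are Igf1r, Kit and Ryk. Pdgfrb has the highest value in every panel, at 0.60, 2.92 and 2.32, Igf1r, Insr and Kit the lowest in KO DN3, and most other receptors lie close to 0.

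In KO DN3, 2 of the 33 further receptors fell and none rose, beside 1.42% and 0.568% of all tested genes. The median difference of the 33 was 0.11, beside 0.03 for all tested genes. Igf1r, the insulin-like growth factor 1 receptor and a close relative of Insr, measured 6.33, 6.42 and 6.50 in WT DN3 and 5.58, 5.60 and 5.31 in KO DN3. It fell by 0.92 (adjusted p = 0.00507, limma), although the adjusted p was 0.0564 in a single fit to all 12 arrays. Kit, the stem cell factor receptor of early thymocytes, measured 6.01, 6.17 and 6.09 in WT DN3 and 5.55, 5.32 and 5.33 in KO DN3. It fell by 0.69 (adjusted p = 0.0149), with an adjusted p of 0.104, 0.0611 and 0.0729 without WT replicate 2, WT replicate 3 or KO replicate 3.

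In lymphomas the same receptors parted. Kit was lower still, from 4.89 over a median of 5.00 to 5.27, and fell by 1.03 against WT DN3 (adjusted p = 6.65e-05). Igf1r ran widely, from 5.45 over a median of 6.12 to 6.62; its differences of -0.32 from WT DN3 (adjusted p = 0.588) and 0.60 from KO DN3 (adjusted p = 0.117) were not called. Ryk, an atypical receptor that binds Wnt proteins, measured 4.56 to 4.65 in WT DN3 and 4.64 to 4.82 in KO DN3. Its means there, 4.62 and 4.76, lay under the filter at 4.78, so Ryk entered the tests only through the lymphomas. In lymphomas it ran from 5.07 over a median of 5.79 to 6.10 without overlap, and it rose by 1.01 against WT DN3 (adjusted p = 0.0150) and 0.87 against KO DN3 (adjusted p = 0.0336). Without WT replicate 1, 2 or 3 the first of these had an adjusted p of 0.0621, 0.0803 or 0.0642, and without KO replicate 1, 2 or 3 the second had 0.0955, 0.0797 or 0.111. Leaving out lymphoma replicate 3, 5 or 6 also lost the second, at 0.0617, 0.0647 and 0.0634. With no filter the adjusted p of Ryk against WT DN3 was 0.0197.

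The member counts in lymphomas follow from how the receptors were chosen and carry no weight of their own. Against WT DN3 1 of 6 tested members was called higher, Pdgfrb, and none lower, beside 2.96% of all tested genes higher and 2.86% lower. Against KO DN3 the same member was called higher, beside 4.50% of all tested genes higher and 2.12% lower.

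No PDGF ligand rose in lymphomas. Pdgfa, which can bind through Pdgfra, measured 5.95, 5.61 and 5.81 in WT DN3 and 6.50, 5.91 and 6.28 in KO DN3, and from 5.64 over a median of 5.69 to 5.92 in lymphomas. It was not called in KO DN3 (0.44, adjusted p = 0.206) except with the replicate block (adjusted p = 0.0218). It fell by 0.51 in lymphomas against KO DN3 (adjusted p = 0.0296), a call lost in the larger array set alone (-0.33, adjusted p = 0.243), without KO replicate 1 or 3 (adjusted p = 0.125 and 0.127) and without lymphoma replicate 1, 2, 3 or 5 (adjusted p = 0.0502, 0.0585, 0.0546 and 0.0566). Pdgfb, a ligand of both PDGF receptors, had mean levels of 5.41, 5.54 and 5.52 in WT DN3, KO DN3 and lymphomas and was not called in any comparison. Pdgfc had means of 4.88, 4.96 and 4.82 and was not called either, and Pdgfd was below the filter.

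Of 29 listed ligands 27 were measured and 17 tested. None was called in KO DN3 without the replicate block, and Pdgfa and Igf2 rose with it (Igf2 by 0.67, adjusted p = 0.00965). Of all tested genes 2.88% rose with that block. In lymphomas 1 fell against WT DN3 and 3 fell against KO DN3, beside 2.86% and 2.12% of all tested genes. The list medians were 0.08, -0.06 and -0.13 in these 3 comparisons, beside 0.03, -0.01 and -0.03 for all tested genes. Vegfa, the ligand of Kdr, fell by 0.68 in lymphomas against WT DN3 (adjusted p = 0.0239) and by 0.62 against KO DN3 (adjusted p = 0.0290). The first call was lost without WT replicate 1 or 2 (adjusted p = 0.146 and 0.0718), and the second without KO replicate 1 or 3 (0.125 and 0.108) or lymphoma replicate 5 or 6 (0.0555 and 0.0510). Igf2, a ligand of Igf1r and Insr, fell by 0.81 against KO DN3 (adjusted p = 0.00977). KO replicate 1 carried much of this, at 6.68 against 5.88 and 5.91 on the other KO arrays, and the difference was -1.44 within the set of 4 arrays and -0.50 within the other 8.

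Coreceptors and genes that handle ligands numbered 18 listed and measured, of which 14 were tested. Nrp1, a coreceptor for vascular endothelial growth factor and semaphorins, measured 6.63, 7.08 and 6.96 in WT DN3 and 7.80, 8.01 and 7.56 in KO DN3. It rose by 0.90 in KO DN3 (adjusted p = 0.0156), the only call of this list there without the replicate block; with it Adam10, a membrane protease that sheds ligands, also fell by 0.47 (adjusted p = 0.0487). In lymphomas it ran from 7.31 over a median of 7.51 to 8.06 and rose by 0.71 against WT DN3 (adjusted p = 0.0349). Without WT replicate 1, 2 or 3 the KO DN3 call was lost (adjusted p = 0.0584, 0.0512 and 0.0546), as was the lymphoma call (0.189, 0.0700 and 0.102), which also went without lymphoma replicate 1 or 6 (0.0518 and 0.0627). Sdc1, the cell-surface proteoglycan syndecan 1, measured 5.22 to 5.48 in WT DN3 and from 5.87 to 6.33 in lymphomas. It rose by 0.69 against WT DN3 (adjusted p = 0.00355). Against KO DN3 the rise was 0.48 (adjusted p = 0.0460), a call lost without KO replicate 1 or 3 and without any single lymphoma array (adjusted p from 0.0511 to 0.198).

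Proximal signal transducers, the adaptors and enzymes that receptors recruit, numbered 41 listed, 34 measured and 32 tested. In KO DN3 1 fell, Pik3cd, beside 1.42% of all tested genes, and the list median was -0.19 beside 0.03 for all tested genes. With the replicate block 4 fell, Pik3cd, Plcg1, Pik3r1 and Akt2, beside 6.35% of all tested genes. Pik3cd, the delta catalytic subunit of phosphatidylinositol 3-kinase, was down by -0.67 in KO DN3 (adjusted p = 0.0453). That call was lost without WT replicate 1, 2 or 3 (adjusted p = 0.0809, 0.212 and 0.141), without KO replicate 1 or 3 (0.0642 and 0.173) and with no filter (0.0575). In lymphomas Pik3cd measured 5.52 to 5.98, below the WT DN3 range of 6.49 to 6.74, and fell by 0.88 (adjusted p = 0.000536).

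Pik3r3, a regulatory subunit of phosphatidylinositol 3-kinase, had the largest rise among the transducers in lymphomas. It measured 5.07 to 5.41 in WT DN3, 5.17 to 5.60 in KO DN3, and from 5.99 over a median of 6.20 to 7.21 in lymphomas, where replicates 2 and 5 were the highest. The rise was 1.13 against WT DN3 (adjusted p = 0.0201) and 1.08 against KO DN3 (adjusted p = 0.0280). The first was lost without WT replicate 1, 2 or 3 (adjusted p = 0.115, 0.0728 and 0.0652), and the second without KO replicate 1 or 3 (0.102 and 0.134). Gab1, a docking adaptor, fell by 0.56 against WT DN3 (adjusted p = 0.0271), a call lost without WT replicate 1 or 3 (0.118 and 0.148) and without lymphoma replicate 3 or 6 (0.0523 and 0.0533). Plcg1, phospholipase C gamma 1, rose by 0.63 against KO DN3 (adjusted p = 0.0120). Without KO replicate 1 or 3 the difference was 0.54 or 0.61 and the call was lost (0.0641 and 0.0620).

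Of 29 listed feedback inhibitors 28 were measured and 26 tested. In KO DN3 only Lrig1 was called, as higher, beside 0.568% of all tested genes. Lrig1, a membrane protein that promotes the turnover of growth factor receptors, measured 5.41, 5.31 and 5.43 in WT DN3 and 6.13, 6.17 and 5.84 in KO DN3. It rose by 0.66 (adjusted p = 0.0237), with an adjusted p of 0.0809, 0.140 and 0.0683 without WT replicate 1, 2 or 3. In lymphomas it measured 6.11 to 6.50 and rose by 0.90 against WT DN3 (adjusted p = 0.000145).

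In lymphomas the feedback inhibitors went both ways. Against WT DN3 4 rose and 3 fell, beside 2.96% and 2.86% of all tested genes. Against KO DN3 2 rose and 3 fell, beside 4.50% and 2.12%. Spred2, an inhibitor of Ras to Raf signalling, measured 7.31 to 7.43 in WT DN3, 7.00 to 7.38 in KO DN3 and 7.66 to 8.31 in lymphomas. It rose by 0.66 against WT DN3 (adjusted p = 0.0107; 0.0635 without WT replicate 1) and by 0.86 against KO DN3 (adjusted p = 0.00480). Nf1, a Ras GTPase-activating protein, measured 7.62 to 8.01 in lymphomas, above 7.02 to 7.17 in KO DN3, and rose by 0.76 (adjusted p = 0.00150). Dusp6, a phosphatase of ERK kinases, rose by 0.66 against WT DN3 (adjusted p = 0.0461). That call was lost without any single WT array or any one of lymphoma replicates 1 to 4 (adjusted p from 0.0696 to 0.183).

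Other inhibitors of the receptors fell. Cblb, a ubiquitin ligase, measured 9.04 to 9.40 in WT DN3 and 8.23 to 8.59 in lymphomas and fell by 0.73 (adjusted p = 0.00104). Ptprj, a receptor-type tyrosine phosphatase, measured 6.14 to 6.26 in WT DN3, 6.11 to 6.42 in KO DN3 and 5.14 to 5.86 in lymphomas. It fell by 0.67 against WT DN3 (adjusted p = 0.00957; 0.0536 and 0.0570 without WT replicate 1 or 2) and by 0.75 against KO DN3 (adjusted p = 0.00944; 0.0505 and 0.0602 without KO replicate 1 or 3). The cytokine signalling inhibitors Socs2 and Socs3 fell by 0.70 and 0.61 against KO DN3 (adjusted p = 0.00215 and 0.00477). The call of Socs3 was lost in the larger array set alone (-0.53, adjusted p = 0.0627).

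**Figure D3:**
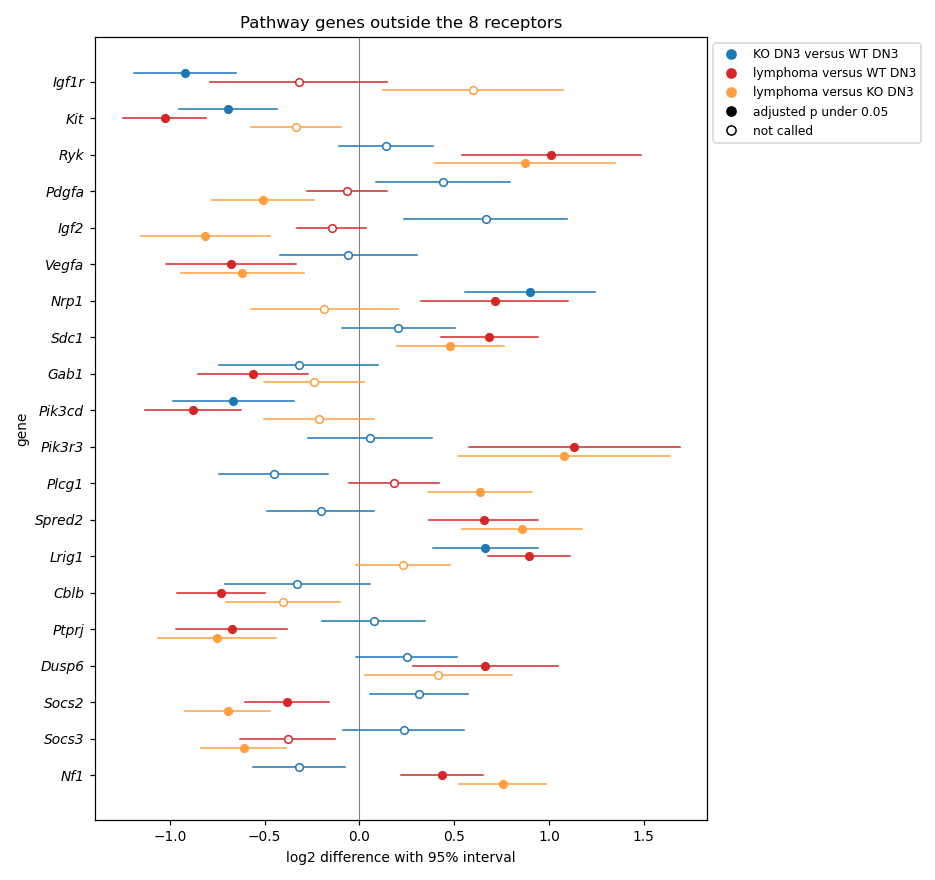
Log2 differences (horizontal axis) with 95% intervals for 20 pathway genes outside the 8 receptors in the 3 comparisons; filled points had an adjusted p under 0.05. Lrig1, Nrp1, Kit and Pik3cd differ from WT DN3 in both KO DN3 and lymphomas. Ryk, Vegfa, Sdc1, Pik3r3, Spred2, Ptprj, Socs2 and Nf1 are called in both comparisons with lymphomas.

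Over the 5 pathway lists, with 167 genes outside the members in all, 155 were measured and 122 tested. In KO DN3 2 were called higher and 3 lower, 1.64% and 2.46%, beside the background of 0.568% and 1.42%. With the replicate block the counts were 4 and 7, or 3.28% and 5.74%, beside 2.88% and 6.35% of all tested genes, so the listed genes were called about as often as all genes. In lymphomas 8 rose and 8 fell against WT DN3, each 6.56% of the 122, beside 2.96% and 2.86% of all tested genes. Against KO DN3 6 rose and 6 fell, each 4.92%, beside 4.50% and 2.12%. The median size of a difference was 0.15, 0.10 and 0.16 in the 3 comparisons, beside 0.14, 0.09 and 0.15 over all tested genes.

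Pdgfrb is a gene of fibroblasts and pericytes as well, so the markers of other thymic cells were read beside it. In such bulk samples, fewer cells of a type and less RNA per cell cannot be told apart. The mean of 19 fibroblast and pericyte markers lay between 5.28 and 5.39 in WT DN3, 5.42 and 5.48 in KO DN3 and 5.30 and 5.40 in lymphomas. None of the 17 tested was called in KO DN3 without the replicate block, and 2 rose with it, Fbln1 by 0.43 (adjusted p = 0.0460) and Pdpn, podoplanin, by 0.39 (adjusted p = 0.0395). Of all tested genes 2.88% rose with that block. In lymphomas 1 rose against WT DN3 and none against KO DN3, beside 2.96% and 4.50% of all tested genes. The list was thus slightly higher in KO DN3 without overlap with WT DN3, and its part in the 0.60 rise of Pdgfrb was not tested. In lymphomas, where Pdgfrb was highest, the list overlapped the WT DN3 range. The 1 gene that rose was Fbln1, an extracellular matrix protein, by 0.67 (adjusted p = 0.0145, and 0.0930 with the replicate block). That block has little basis for lymphomas. Lymphoma and WT DN3 arrays of number 2 did not deviate together (r = -0.22), and lymphoma replicates 4 to 6 have no WT array of their number.

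The 19 fibroblast and pericyte markers differed in brightness, with means over all arrays from 4.07 to 6.62, the highest for Notch3. In lymphomas against WT DN3 their differences ran from -0.15 for Col1a1 to 0.67 for Fbln1, with Col1a2 next at 0.30 (adjusted p = 0.415), and 9 of the 19 were above 0. Against KO DN3 they ran from -0.35 for Kcnj8 to 0.24 for Fbln1, with 5 above 0. In KO against WT DN3 they ran from -0.21 for Notch3 to 0.43 for Fbln1, with 16 above 0. The lymphoma differences of Pdgfrb, 2.92 and 2.32, lay beyond those of all 19.

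Markers of macrophages, which carry Csf1r, had list means of 4.97 to 5.04 in WT DN3, 5.01 to 5.15 in KO DN3 and 4.96 to 5.20 in lymphomas, and none of 11 tested was called in any comparison. Markers of endothelium, which carries Kdr, had means of 5.06 to 5.15, 5.21 to 5.31 and 5.11 to 5.18, with none of 10 tested called without the replicate block and 1, Plvap, higher in KO DN3 with it (0.40, adjusted p = 0.0398). The KO DN3 arrays were the highest for this list. Kdr had its highest group mean in KO DN3 too, at 4.66, but KO replicate 2, at 4.46, lay within the lymphoma range. Markers of thymic epithelium, which carries Egfr and Met, had means of 5.49 to 5.66 in WT DN3, 5.72 to 5.89 in KO DN3 and 5.28 to 5.47 in lymphomas. None of the 11 was called in KO DN3 without the replicate block, and 2 were with it, Krt8 (0.45, adjusted p = 0.0295) and Cdh1 (0.71, adjusted p = 0.00842). Of all tested genes 2.88% rose with that block. In lymphomas 2 fell against WT DN3 and 3 against KO DN3, beside 2.86% and 2.12% of all tested genes. The highest array for this list was KO replicate 1, which was also the highest for Egfr. Whether these small shifts enter the KO DN3 values of Egfr and Kdr was not tested.

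**Figure D4:**
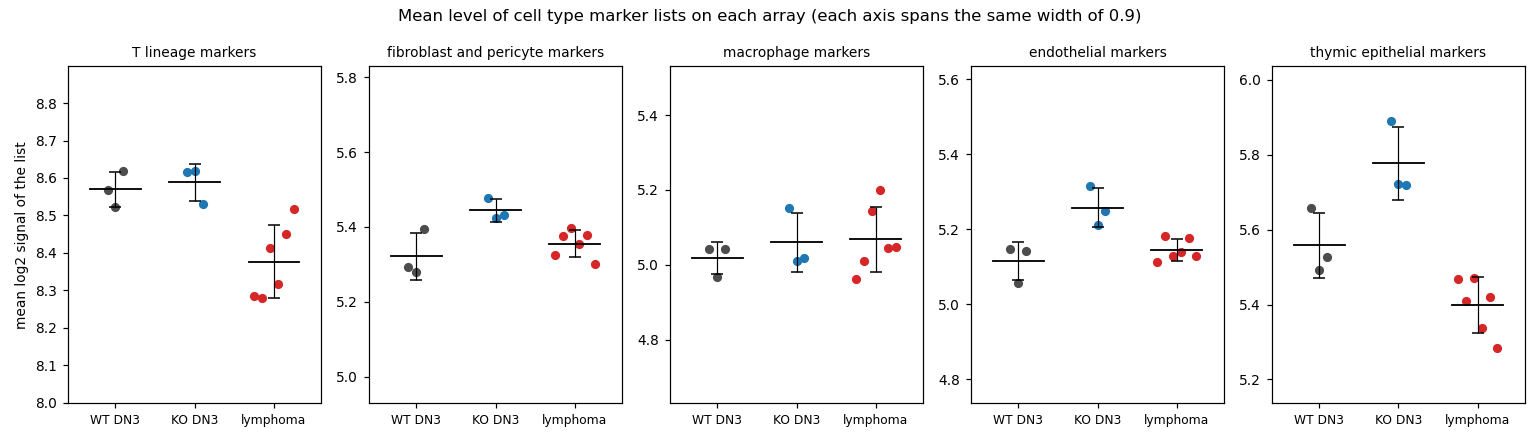
Each panel plots the mean log2 signal of 1 marker list per array (points) in the 3 groups, with the group mean (long bar) and 1 SD (whiskers); all vertical axes span the same width. The fibroblast and pericyte, endothelial and thymic epithelial lists are highest in KO DN3, and no list rises in lymphomas in the way of Pdgfrb.

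The genes beside Pdgfrb on chromosome 18 were read in the order of the RefSeq table. Of its 10 nearest measured neighbours, 5 on each side, none was called in KO DN3. Arsi, which encodes a sulfatase, had the largest KO DN3 difference among them, at 0.70 (adjusted p = 0.193; 0.00842 with the replicate block). That was more than the 0.60 of Pdgfrb, though the KO and WT DN3 arrays of Arsi overlapped. Arsi was 0.52 above WT DN3 in lymphomas (adjusted p = 0.197, limma). In lymphomas Camk2a fell by 0.62 and Slc26a2 rose by 0.41 against WT DN3 (adjusted p = 0.000560 and 0.0401), and the other 8 were not called. Against KO DN3 only Camk2a was called, down by -0.35 (adjusted p = 0.0317). Csf1r and Cdx1, the genes adjacent to Pdgfrb, differed by 0.08 and 0.07 from WT DN3.

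Pdgfra lies on chromosome 5 next to Kit, with Kdr beyond it. The 3 receptor genes went apart in KO DN3, with 0.07 for Pdgfra, -0.69 for Kit and 0.26 for Kdr. In lymphomas against WT DN3 they were at 0.01, -1.03 and 0.01. Of the 10 neighbours Clock, a circadian transcription factor, was the other one called, at 0.51 against WT DN3 (adjusted p = 0.00751) and 0.43 against KO DN3 (adjusted p = 0.0185).

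**Figure D5:**
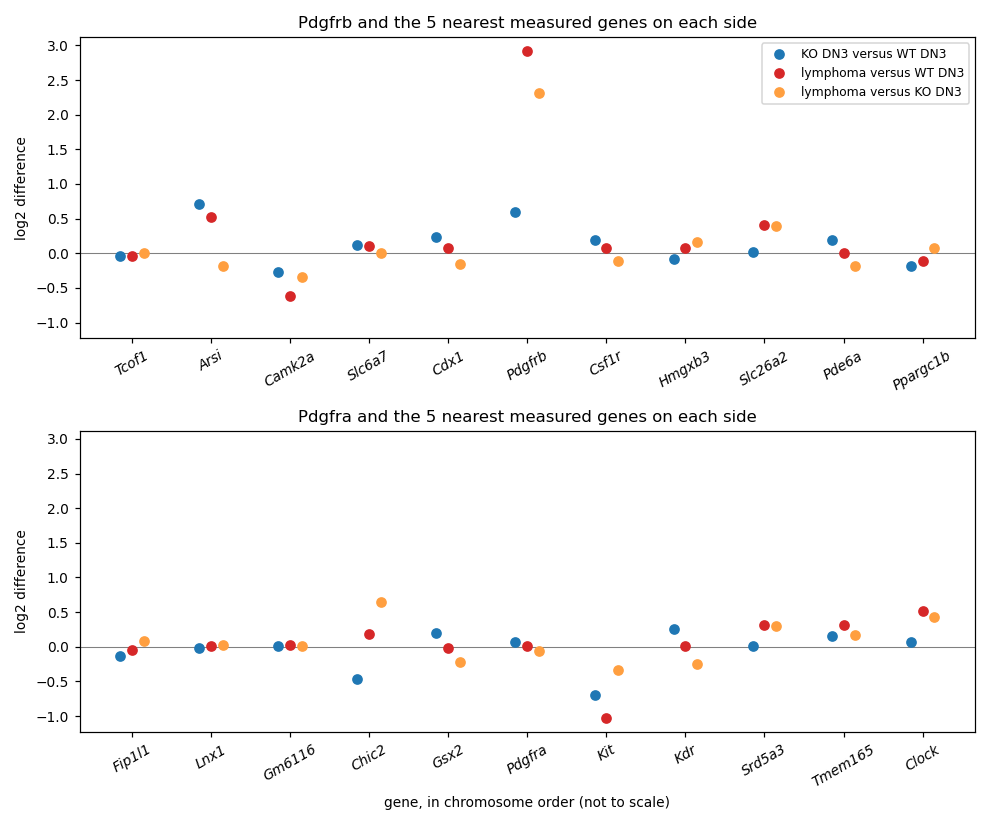
Log2 differences in the 3 comparisons for Pdgfrb (top) and Pdgfra (bottom) and their 5 nearest measured genes on each side, in chromosome order and not to scale. Pdgfrb stands above its neighbours at 2.92 and 2.32 in the lymphoma comparisons, but in KO DN3 Arsi, at 0.70, is above its 0.60. Kit stands below the other genes near Pdgfra at -1.03.

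The genes whose log2 signal followed Pdgfrb most closely over the 12 arrays were Rapgef2 (Pearson r = 0.99), Dennd2d (0.98), D430041D05Rik (0.98), Prmt7 (0.97) and Uaca (0.97). The 12 points are 3 groups that stand apart, so these values mainly say that the genes share the order of the groups. Rapgef2, an exchange factor for Rap proteins, ran from 6.85 to 7.25 in WT DN3, 7.57 to 7.81 in KO DN3 and 9.52 to 9.99 in lymphomas, again without overlap. Over the 6 lymphomas alone the closest genes were Pde7a, Tnik, Ggt5, Ntn4 and Zfp575, at correlations of 0.98 to 0.99. None of these 5 was among the closest over all arrays, and with 6 points searched over 14953 genes such values are a description only.

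The members varied little between tumours. The SD over the 6 lymphomas was 0.21 for Pdgfrb, 0.22 for Egfr, 0.20 for Fgfr1, 0.19 for Insr, 0.12 for Met, 0.10 for Pdgfra, 0.09 for Kdr and 0.07 for Csf1r. For Pdgfrb, tumour replicates 2, 3 and 4 measured 8.94, 9.02 and 8.90, and replicates 1, 5 and 6 measured 8.56, 8.62 and 8.56. No tumour lacked the high signal, and the lowest was 2.00 above the highest KO DN3 array.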

How the data were processed

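RNA of cells sorted into Trizol LS was amplified with a NuGEN Pico system, per the labels' protocols, with an input between 800 pg and 50 ng, and so small an input can add noise. The values of the authors' deposited table were taken as log2 signals, from their range and the usual output of RMA. All fold differences rest on that base. RMA and Partek are named in the submitters' processing notes; for their versions, settings, probe set definition and log base, the sources used here give nothing. RMA makes the arrays share 1 distribution, so values are relative to the other genes of an array, and differences of dim genes are understated. The number of arrays limits the precision.

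Of 35556 rows 21789 had 1 gene symbol in the platform annotation, and the row with the highest mean stood for a gene (999 genes had several). Genes under the 25th percentile of mean, 4985 of 19938, were left out. Each comparison was fitted on its 2 groups with limma 3.58.1 in R 4.3.3 (lmFit and eBayes, two-sided), with p-values adjusted over 14953 genes by Benjamini and Hochberg. Calls needed an adjusted p under 0.05, and every adjusted p of a gene is limma's. The fit was tested on simulated data. Intervals are 95% limma intervals.

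The members and gene lists were chosen with earlier results of these data known. Named were all members, listed pathway genes called at an absolute difference of at least 0.5, the 5 genes most correlated with Pdgfrb over 12 arrays and over 6 lymphomas, and the 5 nearest measured genes on each side of Pdgfrb and Pdgfra. Other genes named (Pdgfb, Pdgfc, Pdgfd, Pik3r1, Akt2, Adam10 and single markers) were picked after their values were seen. KO and WT DN3 arrays of the same number deviated together (r = 0.51, 0.42 and 0.25 over genes), so the numbers were taken to pair them; lymphoma and DN3 arrays of number 2 did not (-0.22 and -0.26). Alternatives were other filters, rows, normalisations, variance models and fits, the replicate block, the array set, the Xist level, and leaving out each array.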

Additional observations from a re-analysis of the deposited data

How the results depend on the processing

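Directions held for Pdgfrb and Insr between KO and WT DN3 in every alternative run: Pdgfrb kept a difference of 0.53 to 0.75 and was called in 10 of 17 alternatives, and Insr kept -0.84 to -0.49 and was called in 11 of 17. No called difference changed sign. Against WT DN3, Kit was called in all 19 alternatives run, and Lrig1, Pik3cd, Sdc1 and Cblb in all 20, as was Pdgfrb, whose difference chose it. The count of members called in KO DN3, 2, became 1 with repeated quantile normalisation, 1 in the larger array set alone and 0 with the Xist level as a term, and ran from 0 to 2 when 1 array was left out. With the replicate block it stayed at 2. The count of listed pathway genes called there, 5, became 11 with the replicate block, 8 with the array set as a term, 2 in the larger set alone and 3 with the Xist term, and ran from 1 to 7 when 1 array was left out. In lymphomas against WT DN3 the member count of 1 became 2 with the Xist term and was 1 without any single array, and the listed count of 16 became 8 in the larger set and ran from 5 to 15 without single arrays. Against KO DN3 the member count of 1 became 2 with the replicate block and 2 with the array set term and ran from 1 to 2 without single arrays, and the listed count of 12 became 5 in the larger set and ran from 5 to 20. Settings with fewer arrays have less power. Between KO and WT DN3 only KO replicate 3 had low Xist, so the Xist term gave the same values as leaving that array out. Both are counted among the 17 alternatives. The cause of the other shifts was not tested. Signals of Met and Kdr near the array's floor, and of Pdgfra and Csf1r not far above it, limit what can be read from them.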
